A study of Homo sapiens with 10 samples.

Results

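Genes expressed in A549/DDP cells were divided by whether their RNA carried called m6A peaks. Of 58037 gene identifiers in the expression tables, 10208 had at least 5 TPM (a level scaled for transcript length and library size) in both A549/DDP inputs. Of these, 2961 had a peak in both A549/DDP peak lists and are called marked, 3880 had a peak in neither list and are called unmarked, and 3367 had a peak in 1 list and were set aside. Marked genes were thus 29.0% of the expressed genes. The members were chosen by the peak calls and by TPM in the A549/DDP inputs, so their peaks and A549/DDP levels are given as a description and not as a test. A549 is a human lung adenocarcinoma cell line and A549/DDP is its cisplatin (DDP) resistant counterpart. Both lines were grown in RPMI 1640 medium with fetal bovine serum and were used at passage 10 or lower. Neither line is labelled as having been under drug when harvested, and the labels do not say whether replicates came from separate cultures. The labels of the A549/DDP inputs give A549 as the line and DDP resistance as the cell type. Each line had 2 input libraries, labelled as total RNA, and 2 m6A-seq libraries, labelled as poly(A) RNA, in which fragments pulled down with an m6A antibody were sequenced. The study used them to compare RNA methylation in the context of YTHDF1 and cisplatin response.

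N6-methyladenosine (m6A) is an internal modification of messenger RNA that is placed in the nucleus by a complex around METTL3 and METTL14, most often in short sequences such as GGAC. It is typically dense near stop codons and in long internal exons, and it is bound by YTH domain proteins that act on translation and decay of the RNA. Short-lived transcripts of regulatory genes are well known carriers of the mark, whereas many housekeeping transcripts carry little of it.

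The epithelial identity of the cells was checked first. KRT8 was at 9818 and 9891 TPM and KRT18 at 4683 and 4725 TPM in the A549/DDP inputs, and CDH1 was at 226 and 114 TPM. KRT19 was at 9.24 TPM in replicate 1 and listed at 0 in replicate 2, although 4 and 5 peaks were called in it, so that the 0 is doubtful. In A549 it was at 33.3 and 63.95 TPM. EPCAM was at 4.54 and 5.35 TPM. The 5 epithelial markers summed to 14741 and 14736 TPM. The 5 alveolar type 2 markers summed to 4.49 and 2.16 TPM, with SFTPA1 and SFTPC at 0 in both libraries. The 3 endothelial markers PECAM1, VWF and CDH5 summed to 0.2 and 0.0 TPM. Of the leukocyte markers CD3E was at 0 in both libraries and PTPRC was at 0.06 and 0.0 TPM, while CD68, a lysosomal protein also made outside the blood lineage, was at 128 and 141 TPM. Fibroblast markers COL1A1, COL1A2 and DCN summed to 19.9 and 3.02 TPM, most of it COL1A1 in replicate 1. Apart from CD68 and COL1A1, the markers of other cell types were thus at or near 0.

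Sequencing of the A549/DDP inputs gave 29225501 and 33971561 expected counts in replicates 1 and 2, and 97.7% and 97.9% of them lay on the 10208 expressed genes. The peak lists were of unequal size. The list of replicate 1 held 27244 peaks in 7001 genes and that of replicate 2 held 10661 peaks in 3818 genes. In all 3327 genes were in both, which is 47.5% of the genes of the first list and 87.1% of those of the second. Of the genes set aside, 3025 had a peak in the list of replicate 1 alone and 342 in that of replicate 2 alone, so the shorter list decided most of the division. Another 366 genes with a peak in both lists were under the TPM floor. At the floor itself, the marked gene SRFBP1 was at 5.01 and 8.71 TPM and the unmarked gene RAPGEFL1 at 6.47 and 5.0 TPM. Just outside it, PKIB, with no peak, was at 4.99 and 5.24 TPM, and ADRA1B, with a peak in both lists, at 6.93 and 4.95 TPM.

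Marked genes had more RNA than unmarked genes. The median level of marked genes was 52.6 TPM in A549/DDP replicate 1 and 54.0 TPM in replicate 2. The median of unmarked genes was 21.6 and 21.1 TPM, and that of genes set aside lay between, at 35.2 and 36.4 TPM. The ratio of the medians was 2.44 in replicate 1 and 2.56 in replicate 2, so the replicates differed little beside the distance between the classes. The size of the difference depended on the rule, as the log2 ratio of 1.32 became 2.05 with a floor of 1 TPM, 0.51 with a floor of 20 TPM and 0.46 with peaks at a p-value of 1e-05 or less. The classes nevertheless overlapped broadly. In replicate 1 the 25th and 75th percentiles were 26.8 and 110 TPM for marked genes and 11.6 and 45.3 TPM for unmarked genes. In the A549 inputs, which the choice of members did not use, the medians were 48.8 and 52.8 TPM for marked genes and 19.4 and 22.8 TPM for unmarked genes. The ratios there were 2.52 and 2.32. Because most genes have a like level in both lines, the A549 inputs are not an independent set of genes. Whether a peak can be called in a gene with few reads is itself tied to its level, and the part of this in the difference was not tested.

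**Figure D1:**
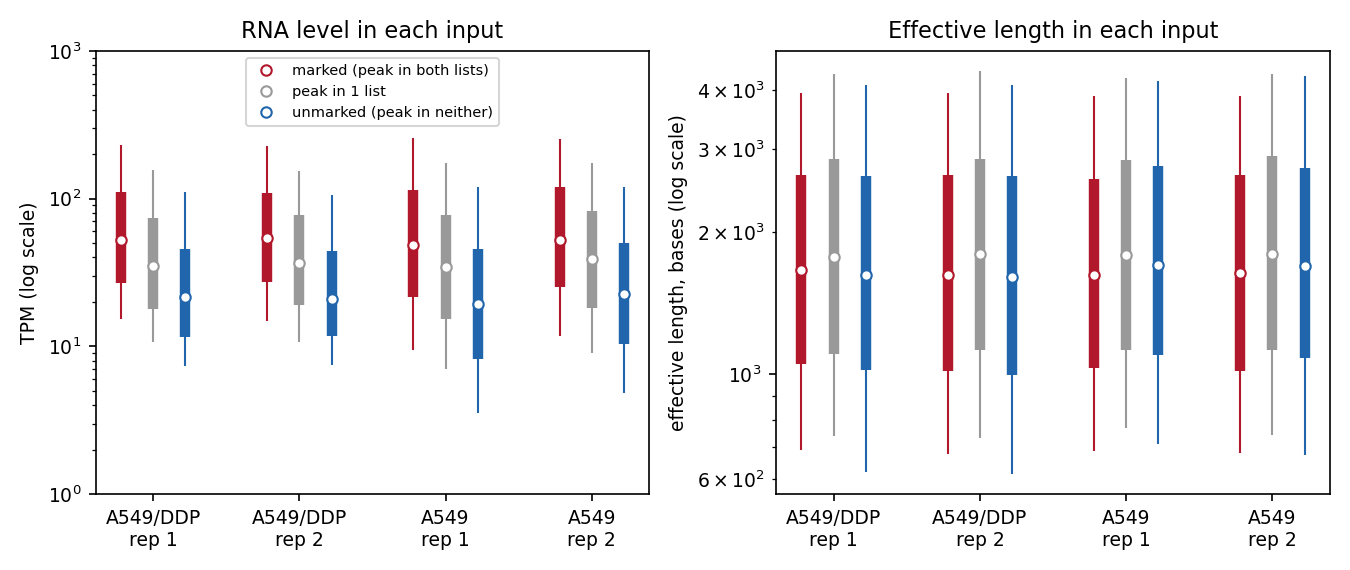
TPM (left, log scale) and RSEM effective length in bases (right, log scale) of 2961 marked, 3367 set-aside and 3880 unmarked genes in the 2 A549/DDP and 2 A549 inputs. Circles are medians, thick bars the 25th to 75th percentile and thin lines the 10th to 90th percentile. Marked genes lie higher in all 4 inputs, while the length distributions nearly coincide.

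The share of marked genes rose with the level over most of its range. Expressed genes were put into 10 groups of about equal size by their mean TPM in the A549/DDP inputs. In the lowest group, up to 10.4 TPM, 8.23% of genes were marked and 67.1% were unmarked. In the group from 90.9 to 166 TPM 45.7% were marked and 17.6% unmarked. Between these groups the share rose at each step but 1, from 21.2% to 20.6%, and above them the rise ended. Among the 1021 genes with the most RNA the marked share was 43.5% and the unmarked share was 26.6%, so that the most abundant RNAs were unmarked more often than those of the group below them.

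Over all members, the median length differed little between the classes in each input. Effective length is the number of positions from which a fragment could have come, averaged by RSEM over the isoforms of a gene. Its median in the A549/DDP inputs was 1662 and 1621 bases for marked genes and 1622 and 1606 bases for unmarked genes, a ratio of 1.02 and 1.01. In the A549 inputs the order for these genes was the opposite, with 1623 and 1635 bases for marked genes and 1703 and 1695 bases for unmarked genes. The sign of this small difference also turned with the choice of genes, since the log2 ratio of the medians was 0.02 over all members and -0.04 over those matched to a RefSeq protein. Genes set aside were the longest class, at 1775 and 1797 bases. Over 10 groups by effective length the marked share stayed between 24.7% in the longest group and 32.3% in the second shortest. Larger differences came with other peak lists, and they went both ways. With peaks at a p-value of 1e-05 or less, 850 genes were marked and the log2 ratio of the median lengths was -0.39, whereas it was 0.20 with the list and input of replicate 1 alone.

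Level and length are themselves related, so the marked share was also read by length within 4 equal groups of level. Up to 16.9 TPM the share was 11.35%, 16.1%, 12.6% and 14.2% from the shortest to the longest of 4 groups by length. From 16.9 to 33.1 TPM it went from 21.5% in the shortest to 25.8% in the longest. From 33.1 to 73.5 TPM it went from 33.3% to 41.2%. Above 73.5 TPM it was 45.8% in the shortest and 44.1% in the longest group. In the same 4 groups of level, the median effective length of marked against unmarked genes was 2074 against 1939, 1985 against 1586, 1790 against 1504 and 1339 against 1417 bases. Within groups of level, marked genes were thus longer at the median than unmarked genes in all but the group with the most RNA. At equal TPM a longer gene gives more reads, and the part of this in the difference was not tested.

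The classes also differed in a property that the comparison had not asked for. The expression tables list the annotated transcripts of every gene, and marked genes had a median of 6 listed transcripts, genes set aside 8 and unmarked genes 9. This comparison was chosen after the data were seen. The marked share was 40.1% among 601 genes with 1 transcript, 44.7% among 544 genes with 2, 28.0% among 1422 genes with 7 or 8, and 16.0% among 748 genes with 21 or more. The unmarked share went the other way from 2 transcripts on, from 23.4% to 50.3%. Genes with 1 listed transcript departed from this order, with 35.9% unmarked.

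**Figure D2:**
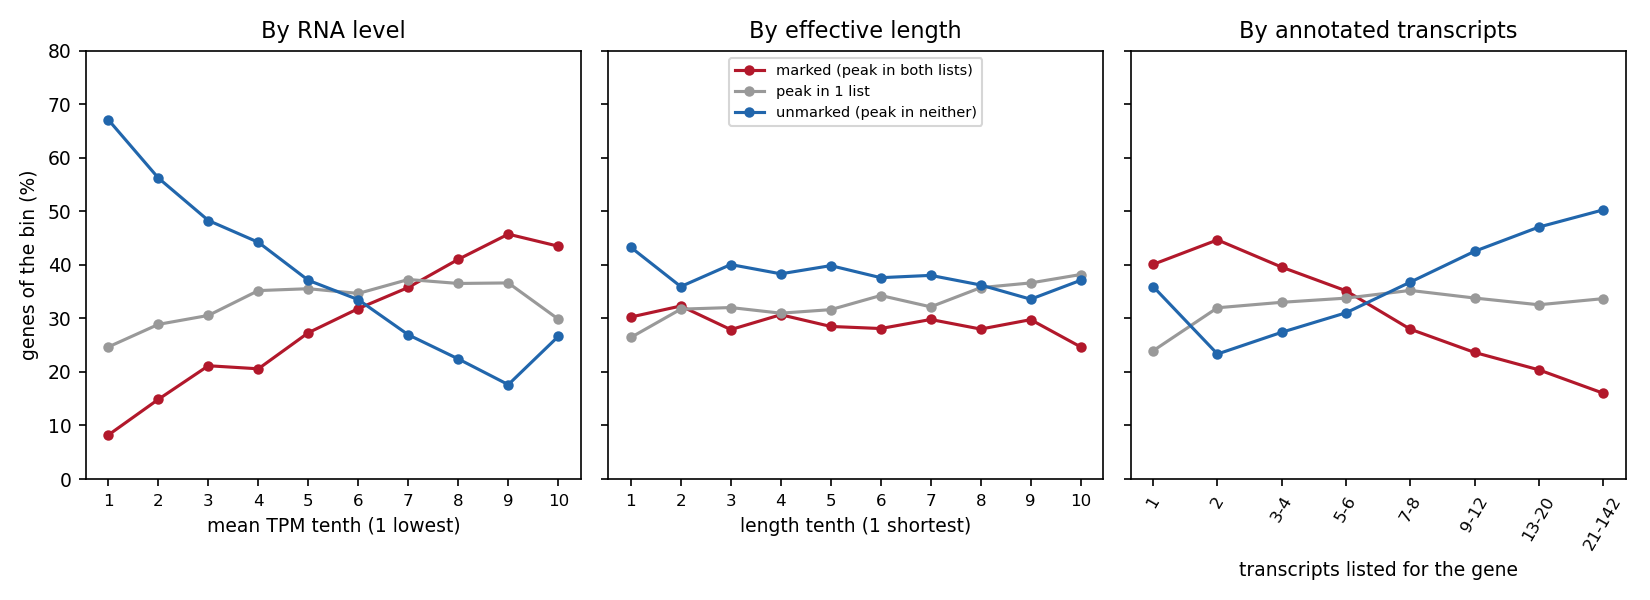
Percent of expressed genes that were marked, set aside or unmarked, by 10 groups of mean A549/DDP TPM (left), 10 groups of effective length (middle) and the number of annotated transcripts (right). The marked share rises with level from 8.23% to 45.7% before the last group, is nearly flat over length, and falls from 44.7% at 2 transcripts to 16.0% at 21 or more.

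The number of transcripts was also read within groups of level. Abundant genes had more listed transcripts, with a median of 5 in the lowest of the 10 groups by level and 11 in the highest, which is the direction opposite to that of the marks. Within each of the 4 groups of level the marked share fell from genes with 1 to 4 transcripts to genes with 13 or more. Up to 16.9 TPM it went from 21.6% to 5.61%, and from 16.9 to 33.1 TPM from 44.9% to 7.25%. From 33.1 to 73.5 TPM it went from 59.4% to 15.4%, and above that from 61.1% to 34.2%. A gene at 33.1 to 73.5 TPM with up to 4 transcripts was therefore marked more often than a gene of the highest group with 13 or more. Over all members, the log2 ratio of the median transcript numbers, marked over unmarked, was -0.58, and it was -0.19 both with the list and input of replicate 1 alone and with peaks at a p-value of 1e-05 or less. The classes of A549, made by the same rule from the A549 inputs and lists, had medians of 6 transcripts for 3902 marked and 9 for 3874 unmarked genes. Those classes differed from the A549/DDP ones in the other measures, with a median of 39.6 against 30.1 TPM and an effective length of 1928 against 1558 bases. How the peak caller treats exons that only some transcripts share is not given in the sources used here, and its part in this difference was not tested.

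**Figure D3:**
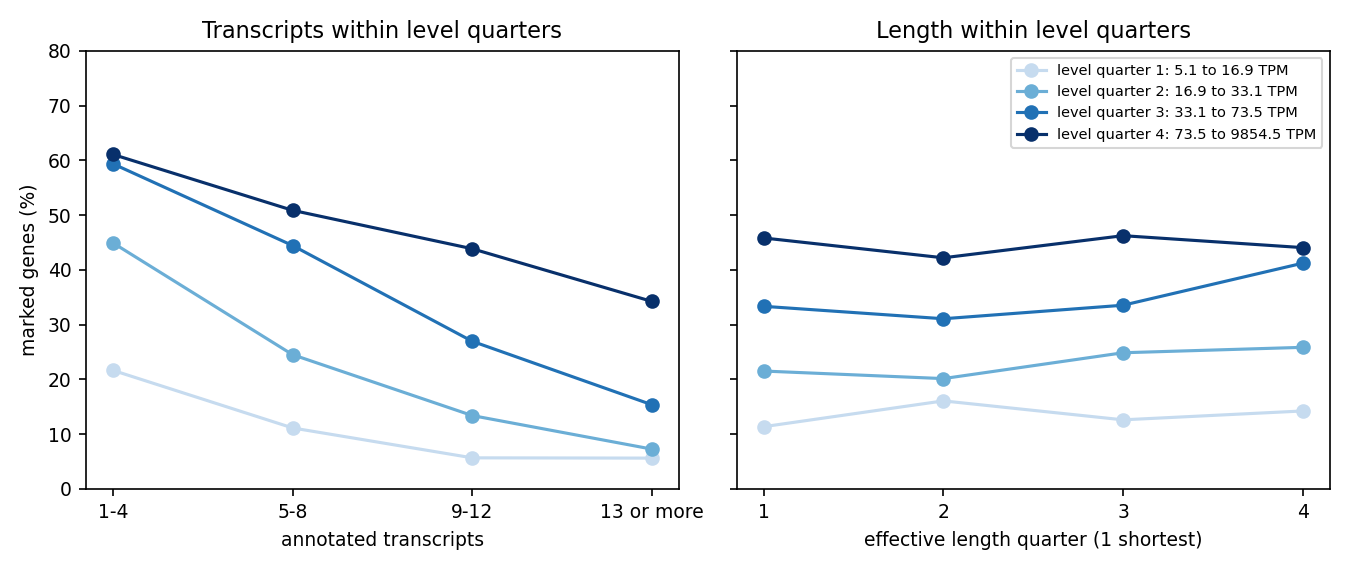
Percent of marked genes by the number of annotated transcripts (left) and by 4 groups of effective length (right), drawn separately for 4 groups of mean A549/DDP TPM (darker lines for more RNA). All 4 lines fall with the number of transcripts, from 61.1% to 34.2% in the group with the most RNA. Over length the lines change less, the most at 33.1 to 73.5 TPM, from 33.3% to 41.2%.

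Among the most abundant genes both classes held housekeeping genes. The 10 marked genes with the most RNA were KRT8, a keratin of simple epithelia, the translation elongation factor EEF1A1, the ribosomal protein genes RPS2, RPL13A, RPL8, RPL41, RPL10 and RPL19, the ferritin heavy chain FTH1 and the glycolytic enzyme ENO1. EEF1A1 was at 8062 and 8714 TPM with 3 peaks in each list. ENO1, the lowest of the 10, was at 3012 and 2835 TPM with 4 and 2 peaks. Among the 10 unmarked genes with the most RNA were the retinal dehydrogenase ALDH1A1, the membrane-binding protein ANXA2, the cytoplasmic actin ACTG1, the ribosomal protein genes RPS3, RPS24 and RPL37A, the complexin CPLX2, the lactate dehydrogenase LDHA and the actin crosslinker ACTN4. ALDH1A1 was at 4645 and 4744 TPM, ACTG1 at 3112 and 3169.98 TPM and ACTN4 at 2165 and 2209 TPM. These genes were unmarked at levels far above 232 TPM, the 90th percentile of marked genes in replicate 1. Ribosomal protein genes, EEF1A1, FTH1 and ACTG1 have near-identical processed copies in the genome, and their values are uncertain to that extent.

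Genes at the extremes of length, taken by rule as the longest unmarked and the shortest marked ones, are given as examples. The 5 longest unmarked genes were MDN1, a ribosome assembly ATPase, the scaffold protein AHNAK, the lipoprotein receptor LRP1, LONRF2 and the ubiquitin ligase HERC2. AHNAK had an effective length of 15593 and 16215 bases and 128 and 120 TPM. MDN1 had 17346 and 17832 bases at 12.1 and 11.4 TPM, with no A549/DDP peak but 5 and 2 peaks in the A549 lists. AHNAK, by contrast, had no peak in any of the 4 lists. The 5 shortest marked genes were the ATP synthase subunit ATP5ME, the ribosomal protein gene RPS27, the complex I subunit NDUFA3, the mitochondrial membrane protein ROMO1 and RGS10. ATP5ME had an effective length of 224 and 221 bases, 203 and 278 TPM and 1 peak in each list.

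Marked genes usually carried several peaks. The median was 3 peaks per marked gene in both lists, and 12.4% of marked genes had a single peak in the list of replicate 1 and 21.6% in that of replicate 2. By the mean of both lists the most peaks were called in MUC5B, a gel-forming mucin, with 20 in each list. It was followed by the cadherin FAT1 with 22 and 13, the cytoskeletal linker PLEC with 18 and 16, the chromatin regulator ANKRD11 with 18 and 15 and the RNA-binding protein PRRC2C with 19 and 13. The proliferation marker MKI67 had 15 in each list, and the matrix proteoglycan VCAN had 19 and 8. The histone methyltransferase KMT2D had 14 and 11 and the kinase ROCK2 14 and 10. Each of these genes had a longer effective length than the median marked gene, and the number of peaks is not a density per base.

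Nearly all marked genes had some base under a peak of both lists, while many replicate 1 peaks had no counterpart. Of the 2961 marked genes, 2909 (98.2%) had at least 1 exonic base covered by a peak in both lists, and in 52 genes the lists shared no base. The peaks of a marked gene together covered a median of 1044 and 642 exonic bases. The median effective length was 1662 and 1621 bases. With so much of a gene under peaks, 1 shared base is a weak criterion, and the overlap due to coverage alone was not tested. By peaks, 59.1% of the replicate 1 peaks of marked genes overlapped a replicate 2 peak, and 83.5% of the replicate 2 peaks overlapped a replicate 1 peak. A peak covered a median of 248 and 199 exonic bases, and 63.8% and 71.3% of peaks lay in a single exon. Over the span of the gene in the RefSeq annotation, introns included, 22.4% and 23.1% of peaks had their midpoint in the last of 20 equal bins and 6.64% and 5.86% in the first. At least 1 peak ended within 1000 bases of the gene's end in 68.9% and 58.2% of marked genes with a peak inside the matched span. A peak began within 200 bases of the gene's start in 32.5% and 20.2% of them. In the A549 lists 20.4% and 21.95% of the peaks of the same genes were in the last bin of 20, and 8.01% and 7.14% in the first.

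**Figure D4:**
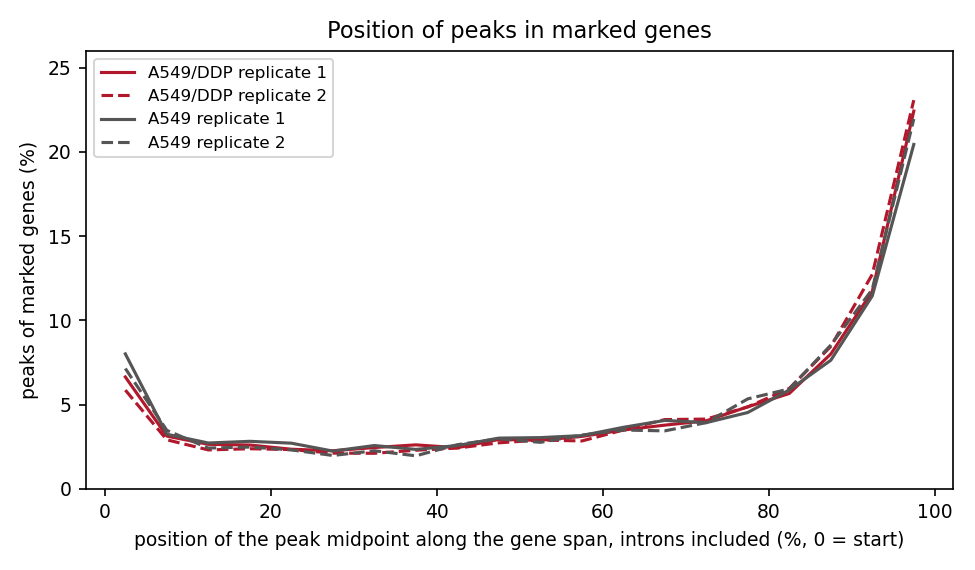
Position of peak midpoints along the span of marked genes, from the start (0%) to the end (100%) with introns included, as percent of the peaks in each of 20 bins, for the 2 A549/DDP and 2 A549 lists. All 4 lines have a small peak at the start and a large one at the end, with 22.4% and 23.1% of A549/DDP peaks in the last bin.

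Peaks at gene starts allowed a look at the sequence under them, since the RefSeq table of start regions (GRCh38.p14) holds the first 50 transcribed bases. A start was found for 2416 marked genes, and in 148 of these a peak of both lists covered at least part of the first 50 bases. The letters GGAC, the most common core of methylated sites, were searched on the transcribed strand. They were in 41 of the 148 starts (27.7%), in 19.9% of 1963 marked genes without a peak there in either list and in 18.8% of all 27305 starts in the table. Taking each list by itself, they were in 23.1% of 386 marked genes with a peak there in replicate 1 and in 25.1% of 215 in replicate 2. The match is a description of the letters and does not locate a methylated base. Because they let a reader see the match in its place, 4 of the 41, taken from those with the most RNA, are shown with 30 bases around the first match, 5′ to 3′ on the transcribed strand, with GGAC in capitals.
SPP1: cacagcatcgtcgGGACcagactcgtctca
UBB: gtgacgcggcgctgggcctttccgGGACag
YWHAE: atttttgctgcccGGACgcggagcgagagg
PFN1: ggagccgcggtccGGACggcagcgcgtgcc
They lie at chr4:87975734-87975763 (plus strand), chr17:16381310-16381339 (plus), chr17:1400177-1400206 (minus) and chr17:4948492-4948521 (minus), all in the first 50 bases of the RefSeq transcript. SPP1 encodes osteopontin, UBB ubiquitin, YWHAE a signalling adaptor and PFN1 the actin-binding profilin, and the values of UBB are uncertain since the genome holds near-identical copies. SPP1 was at 1128 and 1267 TPM with 5 and 3 peaks, and YWHAE at 778 and 837 TPM with 6 and 5 peaks. Both genes also had peaks in the 2 A549 lists, 3 and 2 for SPP1 and 4 and 5 for YWHAE.

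Gene families differed widely in how many of their expressed members were marked. In the translation machinery, 37 of 85 cytosolic ribosomal protein genes (43.5%) were marked and 22 were unmarked, at a median of 1219.6 TPM. Of the 1021 expressed genes with the most RNA 43.5% were marked as well. The difference from the share of all expressed genes, 14.5 percentage points, was 30.2 points with the list and input of replicate 2 alone, 3.39 with those of replicate 1 alone and 5.32 with a floor of 20 TPM. Abundant members fell in both classes. RPS2 was at 5032 and 4876 TPM with 2 and 3 peaks, and RPS3, also of the small subunit, was at 2772 and 2652 TPM with none. The mitochondrial ribosomal protein genes were marked in 51 of 78 cases (65.4%) and unmarked in 7, at medians of 64.5 TPM and 5 transcripts. Of expressed genes at 60.7 to 90.8 TPM 41.0% were marked. Of those at 33.1 to 73.5 TPM with 5 to 8 transcripts 44.4% were marked. MRPS34 was at 242 and 292 TPM with 1 peak in each list and MRPL51 at 253 and 238 TPM with 1 and 3. By symbol root, MRPS, MRPL and RPL had the highest marked shares of all roots with at least 15 marked or unmarked members, 65.5%, 64.7% and 43.6%, followed by CDC with 39.3% and PPP with 38.2%. The root RPS, which besides ribosomal proteins holds S6 kinases and pseudogenes, had 12 of 43 marked (27.9%). Of 53 genes with an EIF symbol 16 were marked (30.2%), near the share of all expressed genes. Most of the 53 are translation initiation factors and some their kinases or repressors, such as EIF2AK1 and EIF4EBP1. The noncoding gene EIF3J-DT and the pseudogene EIF1AXP1 are among them. Their median was 168 TPM, and their share was under that of expressed genes at 90.9 to 166 TPM (45.7%) and above (43.5%). Of 20 cytosolic aminoacyl-tRNA synthetase genes 5 were marked and 2 unmarked, and 13 were set aside. Most of these 13 had a peak in the list of replicate 1, which held 17 of the 20 genes against 6 in that of replicate 2.

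Nuclear genes for other mitochondrial proteins followed. A list of genes of the respiratory chain and ATP synthase, taken by symbol and so including the inhibitor ATP5IF1, the pseudogene UQCRFS1P1 and the readthrough gene ATP5MF-PTCD1, had 37 of 79 marked (46.8%). Its median level was 152 TPM, and 45.7% of all expressed genes at 90.9 to 166 TPM were marked. The excess over all expressed genes, 17.8 points, was 11.2 points with a floor of 20 TPM. In this list, COX6B1 was at 568 and 617 TPM with 2 peaks in each peak list. Mitochondrial import translocases were marked in 14 of 24 cases, and TIMM23B, which has the near-identical copy TIMM23, was the single unmarked one. The RNAs made inside mitochondria themselves were not marked. None of 15 expressed mitochondrially encoded genes was marked and 13 were unmarked, among them MT-CO1 at 106 and 115 TPM. The other 2 had a peak in the list of replicate 2 alone. In the A549 lists of replicates 1 and 2, 0 and 5 of the 15 genes had a peak. Core proteins of the spliceosomal snRNPs and LSM proteins were marked in 19 of 30 cases (63.3%), among them SNRNP70 at 586 and 712 TPM.

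Other lists of widely expressed genes lay near or under the 29.0% of all expressed genes. Their median levels were high, at 303 TPM for the chaperonin TRiC, 133 TPM for the proteasome and 900 TPM for glycolysis. At 90.9 to 166 TPM 45.7% of expressed genes were marked, and of the 1021 with the most RNA 43.5%. The 3 lists were thus under the share of genes at their level. None of the 8 subunits of the chaperonin TRiC was marked and 6 were unmarked, among them CCT7 at 586 and 561 TPM and CCT5 at 522 and 590 TPM. The subunits had a median of 14.5 listed transcripts. Of the 35 proteasome subunits 7 were marked and 10 unmarked, with a peak in 23 in the list of replicate 1, which held 5986 of the 10208 expressed genes, and in 9 in that of replicate 2. Their low share thus did not hold in the list of replicate 1. Of 16 glycolysis genes 4 were marked and 7 unmarked. ENO1 and TPI1 were marked, and LDHA, at 2282 and 2172 TPM, and ALDOA, at 1876 and 2103 TPM, were unmarked. TPI1 was at 852 and 858 TPM with 2 and 3 peaks, so a marked member could have less RNA than unmarked members of the same pathway.

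**Figure D5:**
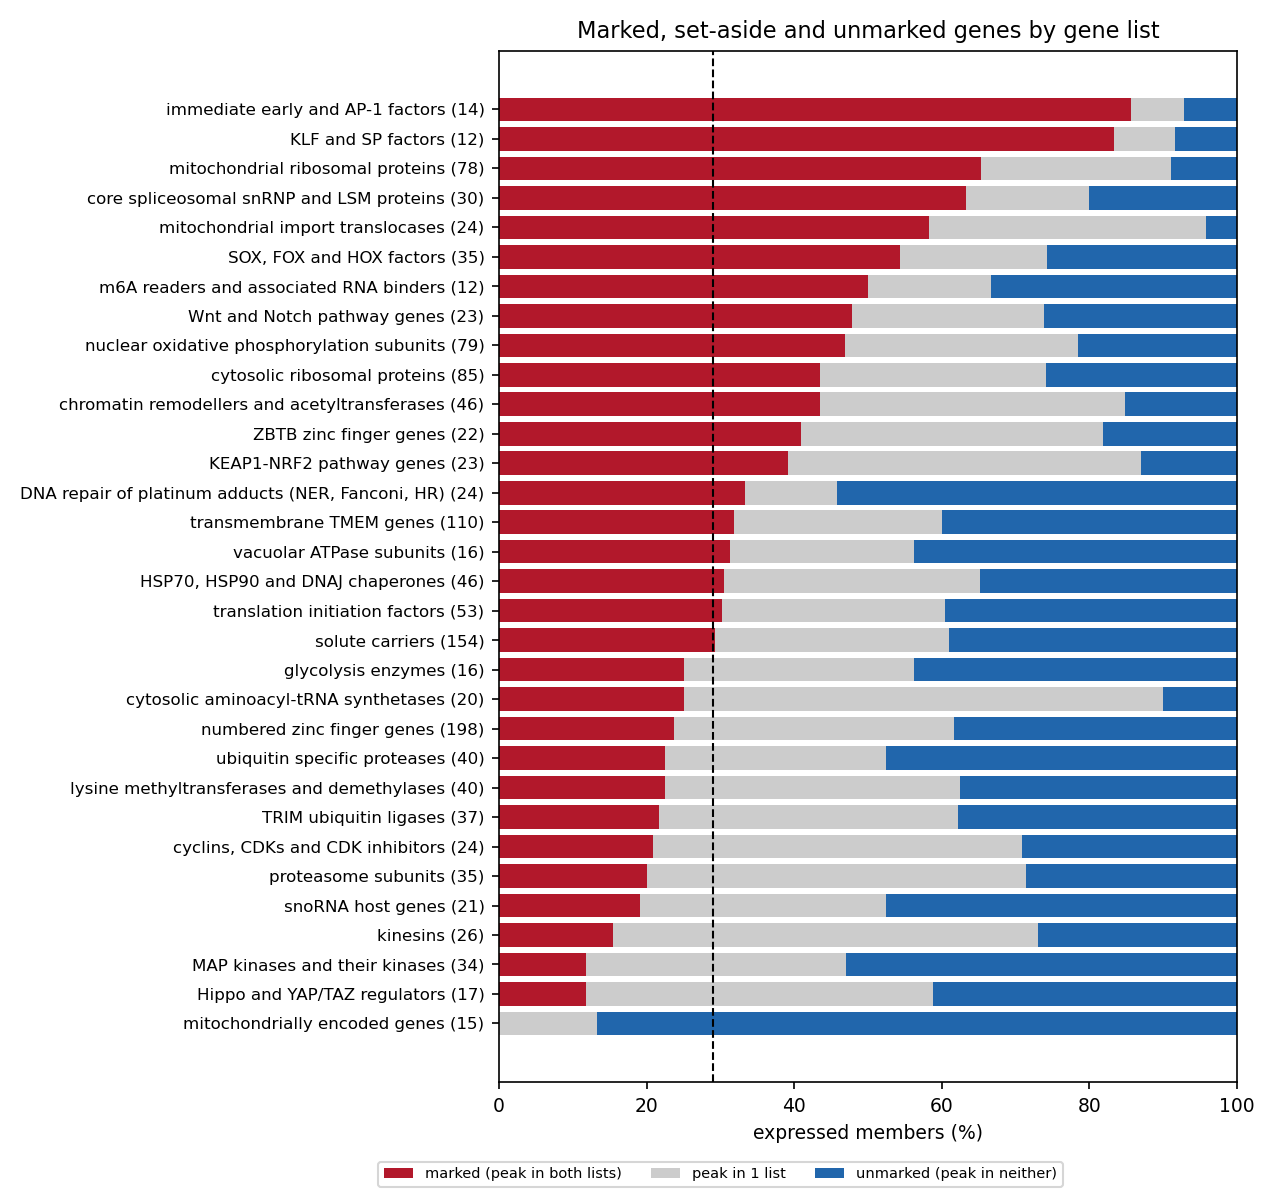
Percent of expressed members of each gene list that were marked, set aside or unmarked, with the number of expressed members in parentheses, for lists with at least 10 expressed members, 1 of which is not shown. The dashed line is the share of marked genes among all 10208 expressed genes, 29.0%. The shares run from 85.7% for immediate early and AP-1 factors to 0.0% for mitochondrially encoded genes.

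Immediate early genes and KLF and SP factors had the highest marked shares under the rule used. With the list and input of replicate 1 alone the mitochondrial ribosomal protein genes, at 91.0%, were above the KLF and SP factors, at 84.6%. They were above them also with a floor of 1 TPM, at 65.4% against 62.5%. Of 14 expressed immediate early and AP-1 genes, 12 were marked (85.7%). With peaks at a p-value of 1e-05 or less, 28.6% of them and 41.7% of the KLF and SP factors were marked, against 8.33% of all expressed genes. The AP-1 subunit JUN was at 25.4 and 30.1 TPM with 4 and 5 peaks, and the phosphatase DUSP1 at 72.7 and 77.5 TPM with 2 in each list. FOS had 3 peaks in the list of replicate 1 alone, and CCN2 was the unmarked member, at 8.49 and 7.1 TPM. Of 12 KLF and SP zinc finger factors 10 were marked (83.3%), with KLF5, a factor of epithelial progenitors, at 93.3 and 144 TPM with 3 and 4 peaks. KLF6 was in 1 list and KLF7 in neither. With the list and input of replicate 1 alone the excess of KLF and SP factors over all genes fell from 54.3 to 30.4 points, and that of snRNP and LSM genes from 34.3 to 19.9 points. The median level of the immediate early genes was 46.3 TPM, and 35.8% of expressed genes at 44.5 to 60.7 TPM were marked. That of the KLF and SP factors was 34.4 TPM, and 31.8% of expressed genes at 33.1 to 44.5 TPM were marked. The immediate early genes had a median of 2 transcripts, and of genes with 1 to 4 transcripts at 33.1 to 73.5 TPM 59.4% were marked. The list of SOX, FOX and HOX genes, which by its symbols also took in the antisense gene FOXD1-AS1, had 19 of 35 marked (54.3%) at a median of 15 TPM. FOXK2 was at 108 and 110 TPM with 7 and 4 peaks.

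The largest family of transcription factors behaved otherwise. Of 198 numbered zinc finger genes 47 were marked (23.7%) and 76 unmarked, at a median of 15.3 TPM and 7 transcripts. Of expressed genes at 14.6 to 19.4 TPM 21.2% were marked, so the share of the family was near that of its level. The lists differed for this family. A peak was called in 121 of the 198 genes in A549/DDP replicate 1 and in 48 in replicate 2. In the A549 lists it was 165 and 122, at a median level of 16.0 TPM in A549. Of the 10208 expressed genes the A549/DDP lists held 5986 and 3303 and the A549 lists 5676 and 4179. The family was thus under the share of all genes only in the list of A549/DDP replicate 2. With the TPM floor at 20, where 37.5% of all expressed genes were marked, 49.1% of the family were, so its place below the share of all genes did not hold at that floor. With the list and input of replicate 1 alone the family was at 55.0% against 54.3% of all expressed genes. ZNF207 was at 130 and 111 TPM without a peak in any list, and ZNF664 was at 86.5 and 90.02 TPM with 8 and 2 peaks. The related ZBTB genes were marked in 9 of 22 cases (40.9%).

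Chromatin and signalling genes divided by kind, where 29.0% of all expressed genes were marked. Chromatin remodellers, acetyltransferases and bromodomain and ARID genes were marked in 20 of 46 cases (43.5%) and unmarked in 7, with the bromodomain gene BRD2 at 259 and 250 TPM and 6 and 4 peaks. Lysine methyltransferases and demethylases were marked in 9 of 40 (22.5%). Of 23 Wnt and Notch genes 11 were marked (47.8%), among them GSK3A and AXIN1. By contrast, 4 of 34 MAP kinases and their kinases were marked (11.8%), MAP2K1, MAP3K11, MAP3K10 and MAPK6, and 18 were unmarked. Their medians were 27.4 TPM and 10.5 transcripts. Of genes at 16.9 to 33.1 TPM with 9 to 12 transcripts 13.4% were marked, which is near the share of this family. With the list and input of replicate 1 alone 47.1% of this family were marked, against 54.3% of all expressed genes. MAP3K11 was at 77.2 and 85.0 TPM with 10 and 8 peaks. In the Hippo pathway TEAD1 and AMOTL2 alone were marked among 17 genes, and 8 were set aside, all of them with peaks in the list of replicate 1. Kinesins were marked in 4 of 26 (15.4%) and ubiquitin specific proteases in 9 of 40 (22.5%). The list of replicate 1 alone held 18 of the 26 kinesins, 25 of the 40 methyltransferases and demethylases and 10 of the 17 Hippo genes, against 5986 of the 10208 expressed genes, so the low place of these families did not hold in that list. It held 17 of the 40 ubiquitin specific proteases, whose low place did hold there. The roots with the lowest marked shares were CEP, mostly centrosomal proteins, with 7.41%, VPS, vacuolar sorting, with 11.4%, TBC and TTC with 16.7% each and ANKRD with 17.4%. Each of these 5 roots had a median of 9 to 11 listed transcripts.

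Genes of the m6A pathway were themselves divided. Among 9 writer genes 5 were marked (55.6%, against 29.0% of all expressed genes), ZC3H13, CBLL1, RBM15B, METTL16 and RBM15. The catalytic subunit gene METTL3 was unmarked at 87.4 and 57.1 TPM. ZC3H13 was at 30.01 and 42.2 TPM with 6 and 8 peaks. VIRMA, WTAP and METTL14 had peaks in the list of replicate 1 alone, so no writer other than METTL3 lacked a peak altogether. Among 12 reader and associated genes 6 were marked, 2 were set aside and 4 unmarked. YTHDF1, YTHDF2, YTHDF3, YTHDC1, HNRNPA2B1 and HNRNPC were marked, IGF2BP1 and ELAVL1 were in 1 list, and YTHDC2, IGF2BP2 and IGF2BP3 were among those in neither. YTHDF1, which binds m6A and promotes translation, was at 42.7 and 46.0 TPM with 2 and 4 peaks, and also had 2 peaks in each A549 list. The eraser gene ALKBH5 was marked, with 57.2 and 64.3 TPM and 6 and 1 peaks. FTO, the other eraser, was unmarked at 80.1 and 63.2 TPM.

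Lists chosen for the drug were next. Cisplatin damage is repaired by nucleotide excision and by the Fanconi and recombination pathways. Of their 24 genes 8 were marked (33.3%), 3 set aside and 13 unmarked, near the 29.0% of all expressed genes. The list of replicate 1 held 10 of the 24, against 5986 of the 10208 expressed genes, so their share was lower than that of all genes there. The excision repair genes ERCC1, XPC, DDB2, RAD23B and ERCC5 were marked and DDB1, ERCC2 and ERCC8 were not, with ERCC1 at 173 and 118 TPM and 5 and 3 peaks. Among Fanconi genes, FANCA, FANCG, FANCI, FANCD2, FANCC and FANCM were unmarked and FANCL was marked. In the KEAP1-NRF2 pathway, which governs the antioxidant response, 9 of 23 genes were marked (39.1%, against the same 29.0%), 11 set aside and 3 unmarked. Their median was 390 TPM, and of the 1021 expressed genes with the most RNA 43.5% were marked, so the share was not above that of its level. The transcription factor gene NFE2L2 was at 91.6 and 105 TPM with 4 and 6 peaks. Its inhibitor KEAP1 was in the list of replicate 1 alone. TXNRD1, GSR and RBX1 had no peak, with TXNRD1 at 1034 and 1027 TPM, and FTL, at 7213 and 6331 TPM, had 2 peaks in the list of replicate 2 alone. FTL, the ferritin light chain, thus lay outside the marked class although its partner FTH1 was in it.

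The A549 lists were not used to choose the members. A peak was called in the A549 list of replicate 1 in 85.6% of marked genes, 61.6% of genes set aside and 27.5% of unmarked genes, against 55.6% of all expressed genes. In the list of replicate 2 the shares were 75.6%, 41.3% and 14.2%, against 40.9%. The order of the classes was thus the same in both A549 lists. It also held within each of the 4 groups of level. Up to 16.9 TPM, 91.3% of marked and 29.8% of unmarked genes had a peak in the list of replicate 1, and above 73.5 TPM 79.8% and 21.3% did. In all 71.2% of marked genes were in both A549 lists and 10.0% in neither. Of unmarked genes 68.7% were in neither and 10.4% in both.

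Genes that crossed between the lines were few and of different kinds. The 297 marked genes without an A549 peak had a median of 73.5 and 72.2 TPM in A549/DDP and 86.3 and 83.5 TPM in A549, above the median of all marked genes in each input. Those with the most RNA were RPL10, RPS27, the RNA-binding protein genes HNRNPA2B1 and NCL, RPL15, RPL6, the glutathione transferase gene MGST1 and the annexin gene ANXA1. NCL was at 1642 and 1701 TPM in A549/DDP and 1793 and 1836 TPM in A549, with 4 and 5 peaks in A549/DDP and none in A549. The 402 unmarked genes in both A549 lists had a median of 18.7 and 17.8 TPM in A549/DDP and 25.7 and 27.4 TPM in A549. The leading ones by A549/DDP level were EEF2, RPS14, the transglutaminase gene TGM2, IGFBP4, RPL24, YWHAQ, ARF1 and EIF3B. TGM2 was at 1504 and 1704 TPM in A549/DDP without a peak and at 289 and 254 TPM in A549 with 6 and 4. These 16 genes were chosen after their values were seen. The lists give no read depth, so a peak missing from a list may be under its threshold.

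RNA levels of the 2 lines were compared over 16406 genes by the quasi-likelihood test of edgeR, p-values being adjusted by the Benjamini-Hochberg method, with 2 inputs a line. Of all tested genes 6.85% were higher in A549/DDP and 8.0% lower at an adjusted p under 0.05. Among expressed genes 10.5% were higher and 10.5% lower. Of marked genes 420 (14.2%) were higher and 338 (11.4%) lower. Of 3879 unmarked genes tested 299 (7.71%) were higher and 360 (9.28%) lower. The TPM floor, set in A549/DDP alone, favours genes that are higher there. With the floor in all 4 inputs 346 of 2806 marked genes (12.3%) and 206 of 3216 unmarked genes (6.41%) were higher. At that floor 338 marked (12.05%) and 360 unmarked genes (11.2%) were lower, so marked genes were higher and lower about equally often. Calls of higher genes also rose with level, which differs between the classes. Above 73.5 TPM the shares were alike, 19.3% of marked and 20.4% of unmarked genes higher and 10.9% and 10.6% lower. In the 3 lower groups of level 4.91%, 11.6% and 12.9% of marked genes and 3.84%, 4.96% and 10.0% of unmarked genes were higher. The difference between the classes was not tested, since genes are not replicates. The counts also moved with single libraries. Without A549/DDP replicate 1, 246 marked genes were higher and 197 lower, without A549/DDP replicate 2 6.82% of marked genes were lower in place of 11.4%, and without A549 replicate 2 604 marked genes were lower and 497 and 559 unmarked genes were higher and lower. DESeq2 called 635 and 523 marked and 547 and 550 unmarked genes.

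Most genes with peaks in 1 line alone did not pass the test between the inputs. Of the 402 unmarked genes with peaks in both A549 lists 87 (21.6%) were lower in A549/DDP and 21 (5.22%) higher, against 9.28% and 7.71% of all unmarked genes and 10.5% of expressed genes each way, with a median log2 fold change of -0.48. The genes of this set thus had, at the median, less RNA in the line where no peak was called. Of the 297 marked genes without an A549 peak 51 (17.2%) were lower and 47 (15.8%) higher, against 11.4% and 14.2% of all marked genes, with a median of -0.06.

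The largest rises among marked genes were the epithelial transcription factor SPDEF, the noncoding RNAs THRIL and LINC02418, the protocadherin PCDH17 and the cystatin CST1. SPDEF was at 34.4 and 37.8 CPM (counts scaled to library size with TMM factors) in A549/DDP and at 0 in both A549 inputs. CST1 was at 61.4 and 42.3 CPM against 0.304 and 0.282 CPM. All 5 genes were under 5 TPM in the A549 inputs and were members through their A549/DDP level, so these values are a description. THRIL was listed at 0 in both A549 inputs but had 3 and 1 peaks in the A549 lists, so its 0 values are doubtful. MUC5B, the gene with the most peaks by the mean of both lists, was at 385 and 386 TPM in A549/DDP and 5.32 and 6.34 TPM in A549, with a log2 fold change of 5.81 (SE 0.20, edgeR adjusted p = 0.000958). Its A549 lists held 16 and 15 peaks, so an RNA level far lower than in A549/DDP went with nearly as many called peaks. MUC5B is long, with an effective length of 16792 and 13412 bases in the A549/DDP inputs, so its counts are high for its TPM. In CPM it was at 65.5 and 68.4 in A549 and at 4195 and 3340 in A549/DDP.

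The largest falls among marked genes were CCN1, a matricellular target of YAP, the stress genes GADD45A and PPP1R15A, the AP-1 subunit FOSL1 and the coactivator CITED4. CCN1 was at 22.8 and 23.0 CPM in A549/DDP and 950 and 536 CPM in A549, a log2 fold change of -5.02 (SE 0.33, edgeR adjusted p = 0.00193). GADD45A was at 28.0 and 29.8 CPM against 1140 and 430 CPM, where the A549 replicates differed by more than the A549/DDP ones. The groups did not overlap for either gene. Of the 14 immediate early and AP-1 genes 9 were lower in A549/DDP and 1 higher, against 10.5% of expressed genes in each direction. DUSP1 and JUN were among those lower, with log2 fold changes of -2.70 (SE 0.22) and -3.00 (SE 0.18).

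Among unmarked genes the largest rises were CADPS2, a factor of vesicle release, the microvillar genes VIL1 and MYO1A, the adhesion molecule NCAM1 and FAM83A. VIL1 was at 17.6 and 19.1 CPM in A549/DDP and 0.03 and 0.028 CPM in A549, and was likewise a member only through its A549/DDP level. The largest falls were CCN2, the transcription factor ETS1, the clock gene PER1, the nuclear envelope gene SYNE1 and the cytokine IL11. ETS1 was at 16.5 and 11.1 CPM against 599 and 350 CPM, a log2 fold change of -5.10 (SE 0.37, edgeR adjusted p = 0.00235). CCN2 was at 12.2 and 10.1 CPM against 498 and 339 CPM and had 1 peak in each A549 list. For ETS1 and CCN2 the groups did not overlap.

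The gene lists differed in how many members changed, against the 10.5% of expressed genes higher and 10.5% lower. Of 85 cytosolic ribosomal protein genes 3 were higher and 0 lower, and of 78 mitochondrial ones 4 were higher and 3 lower. Of 16 glycolysis genes 9 were higher and of 23 KEAP1-NRF2 genes 12 were higher and 3 lower, among them the marked genes HMOX1, which was higher, with a log2 fold change of 2.50 (SE 0.22, edgeR adjusted p = 0.00314), and NFE2L2, which was lower, with -1.13 (SE 0.17, edgeR adjusted p = 0.0122). Of 20 cytosolic aminoacyl-tRNA synthetase genes 11 were lower and 1 was higher. Lower members were also frequent among the m6A readers and associated RNA binders (5 of 12), KLF and SP factors (4 of 12), kinesins (8 of 26), Hippo genes (5 of 17), ubiquitin specific proteases (10 of 40) and the list of chromatin remodellers, acetyltransferases and bromodomain and ARID genes (11 of 46), and higher ones among Wnt and Notch genes (6 of 23). The other way went 2 KLF and SP factors, 2 ubiquitin specific proteases, 3 genes of the chromatin list and 3 Wnt and Notch genes. No reader, kinesin or Hippo gene was higher. Among the m6A genes YTHDC1, marked, was lower, at 47.0 and 43.0 TPM against 292 and 209 TPM in A549 (log2 fold change -2.26, SE 0.23, edgeR adjusted p = 0.00434). YTHDF1 had a log2 fold change of -0.06 (SE 0.20, edgeR adjusted p = 0.897).

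Classes of genes by product were compared as well. Among expressed genes matched to RefSeq, 29.7% of 9555 protein-coding genes were marked, 24.9% of 225 long noncoding RNA genes, 16.4% of 104 transcribed pseudogenes and 1.64% of 61 other pseudogenes, where reads of a parent gene cannot be told apart from those of the copy. Peaks assigned to neighbours were also counted. A peak assigned to another gene on either strand lay within the span of 7.46% of 3739 unmarked genes in the list of replicate 1 and of 2.43% in that of replicate 2, against 18.3% and 12.5% of 2909 marked genes.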

How the data were processed

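The labels' input and m6A-seq libraries of A549 and A549/DDP were used, 2 of each per line. Per the submitters' processing notes STAR, RSEM, bedtools and the build hg38 were used, and libraries were strand-specific. The peak caller is not given in the sources used here. For each input the authors deposited expected counts (estimated, not normalized), TPM, length and effective length per gene. For each m6A-seq library the authors deposited called peaks with exon blocks, a gene and a p-value. Replicates were not pooled. Replicate numbers of the A549 m6A-seq libraries differ between labels and file names, and those of the labels were taken. A second pair of A549 inputs was not used here.

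Of the 58037 gene identifiers, symbols came from an Ensembl table, and 9958 of the 10208 expressed genes matched RefSeq (GRCh38.p14) by symbol. After rounding of the expected counts, low genes were removed (filterByExpr), TMM factors computed and the lines compared in edgeR 4.0.16 (glmQLFit, glmQLFTest; R 4.3.3) without covariates. Standard errors were approximated from the log2 fold change and the root of the F statistic. The procedure was tested on simulated data. DESeq2 1.42.0 and other settings were alternatives. Descriptions used Python 3.11.15, pandas 2.3.3, numpy 2.4.6 and matplotlib 3.10.9. Total counts were 29225501 and 33971561 in A549/DDP and 35286514 and 34570074 in A549. Inputs of a line differed by more than sampling noise (chi-square over degrees of freedom: 53.6 for A549/DDP, 83.1 for A549). As the labels name no separate cultures, p-values measure the spread between these libraries.

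Named genes were the 10 marked and 10 unmarked genes with the highest mean TPM, the 5 longest unmarked and 5 shortest marked, the 10 with the most peaks, the 5 largest rises and falls per class with an adjusted p under 0.05 and a mean of at least 5 CPM, genes next to the TPM floor, members of gene lists, and the 5 symbol roots with the highest and lowest shares. The members and lists were chosen with earlier results of these data known. The comparison of transcript numbers, the sets of genes crossing between the lines and the search at gene starts were added after seeing the data. Some genes and 1 gene list that these rules take in are not reported here.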

Additional observations from a re-analysis of the deposited data

How the results depend on the processing

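The classes depended on the floor and on the lists. There were 850 marked and 6153 unmarked genes with peaks at a p-value of 1e-05 or less, 5969 unmarked with a floor of 1 TPM, 1704 unmarked with a floor of 20 TPM, and 6328 marked when a peak in either list was enough. With the list and input of replicate 2 alone 3374 genes were marked and 7931 unmarked, and with those of replicate 1 alone 6184 and 5214. The log2 ratio of median TPM, marked over unmarked, was 1.32, and it was 2.05 with a floor of 1 TPM, 0.51 with 20 TPM, 0.46 with the strict peaks and 1.20 to 1.22 with 1 replicate. A floor cuts the lower class more, which bears on this ratio by construction. The log2 ratio of median effective length, 0.02, was -0.0318 with a floor of 1 TPM, 0.0765 with 20 TPM, -0.39 with strict peaks, -0.0397 for genes with a RefSeq protein and 0.0161 to 0.20 with 1 replicate. The cause was not tested. The log2 ratio of median transcript number, -0.58, ran from -0.78 to -0.19 over the alternatives, which were chosen after seeing the data. Of 33 lists with at least 10 expressed members 19 were above the share of all genes. The number of such lists changed with the setting. Above that share were 16 of 30 with a floor of 20 TPM, 17 of 33 with strict peaks and 24 of 33 with the list and input of replicate 1 alone. The marked share of numbered zinc finger genes minus that of all genes was -5.27 percentage points, 11.6 with a floor of 20 TPM and -10.17 to 0.77 with 1 replicate. With strict peaks the same difference fell from 36.4 to 16.0 points for mitochondrial ribosomal protein genes. For immediate early and AP-1 genes it fell from 56.7 to 20.2 points.

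Counts of marked genes higher and lower and of unmarked genes higher and lower were 635, 523, 547 and 550 with DESeq2. With no filter beyond 1 count in all, 539 marked were lower and 521 and 572 unmarked were higher and lower. With at least 10 counts in every input 508 unmarked were higher. In a fit with a block for the replicate number, 570 and 479 marked and 472 and 513 unmarked genes were called. The numbers were not shown to pair the libraries, as same-numbered inputs had a correlation of deviations of 0.0259 over genes. Leaving out a library, where the lone library is assumed to vary like the other line, gave 246 to 595 marked higher, 197 to 604 marked lower, 211 to 497 unmarked higher and 248 to 559 unmarked lower. The marked share higher exceeded the unmarked one in each of these fits. All of them used the same members and drew on the same inputs, and none took level into account. In the main fit the shares above 73.5 TPM were 19.3% of marked and 20.4% of unmarked genes. The marked share was the larger in the lower groups of level. Input depth was similar among libraries, and the depth of the m6A-seq libraries is unknown.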
